A study of Mus musculus with 41 samples.

Results

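MLL3/4 occupancy in epidermal stem cells was compared before and 1 week after induction of SOX9, using the peaks of MLL3/4 CUT&RUN (CNR) at day 0 (D0) and week 1 (W1). In CNR an antibody brings a nuclease to the protein of interest, and the short pieces of chromatin it frees are sequenced. The D0 list held 37072 peaks and the W1 list 31539, that is 68611 of the 328085 peaks in the 18 lists of the series. A D0 peak was called lost where no W1 peak overlapped it by at least 1 bp and kept otherwise, and a W1 peak without a D0 overlap was called gained. This gave 17963 lost peaks (48.5% of D0), 19109 kept D0 peaks, 19021 kept W1 peaks and 12518 gained peaks (39.7% of W1).

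The cells were epidermal stem cells (EpdSCs) of male CD1 mice carrying K14rtTA and TRE-myc-Sox9, in which doxycycline (DOX) switches on MYC-tagged SOX9 wherever the *Krt14* promoter drives rtTA in skin epithelium. They were sorted from back skin as cells negative for CD31, CD45, CD117, CD140a and CD34 and high for CD49f and Ly6A. D0 animals were 21 postnatal days old and had no DOX, W1 animals were 28 days old after 1 week of DOX, and animals of both groups carried both transgenes. Age and DOX therefore cannot be told apart. Each group had 2 samples, which the authors pooled before peak calling, so the spread between animals is unknown and the groups were compared without a test. Shares carry 95% Wilson confidence intervals (CI) over peaks, which cover counting error only.

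MLL3 and MLL4 (encoded by *Kmt2c* and *Kmt2d*) are the methyltransferases that place monomethylation on lysine 4 of histone H3 at enhancers, the distal elements that raise transcription of a gene. They work in a complex with the demethylase UTX and are brought to chromatin by sequence-specific factors. In skin, SOX9 is a factor of hair follicle stem cells, while TP63, GATA3, GRHL and AP-1 factors act in the epidermis.

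Sequences at the centre of the maximum of 9 peaks are shown because they stand at the head of each class, and 2 more because *Gata3* and *Runx1* are loci of the epidermal and hair follicle fates. Each has 150 bases of the plus strand of GRCm38.p6 (mm10), and capitals mark words of factor families listed further on. Labels name the nearest protein-coding gene, also where the start at the peak belongs to another gene. Of the lost peaks, the windows of the 2 highest distal ones and of the highest at an annotated start (chr10:56423202-56423351, chr15:92366428-92366577 and chr6:113076119-113076268) read as follows. The first holds a GATA and a FOX word, and the others hold none of the words.
Gja1 lost distal: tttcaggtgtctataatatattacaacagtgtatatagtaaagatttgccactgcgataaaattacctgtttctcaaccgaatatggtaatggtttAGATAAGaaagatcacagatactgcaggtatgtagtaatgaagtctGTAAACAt
Pdzrn4 lost distal: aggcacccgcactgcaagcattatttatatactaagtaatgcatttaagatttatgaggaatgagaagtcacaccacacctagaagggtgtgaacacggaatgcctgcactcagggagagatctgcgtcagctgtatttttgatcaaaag
Setd5 lost promoter: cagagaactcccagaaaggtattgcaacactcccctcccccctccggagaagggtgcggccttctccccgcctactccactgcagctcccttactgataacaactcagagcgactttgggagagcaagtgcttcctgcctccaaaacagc

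Of the gained peaks, the corresponding windows (chr4:72233948-72234097, chr2:77986234-77986383 and chr10:24446413-24446562) hold 2, 1 and 0 SOX words. The last peak is at the start of the noncoding gene *Gm15271*, 148954 bp from *Ccn2*, and is in the background regions described further on.
Tle1 gained distal: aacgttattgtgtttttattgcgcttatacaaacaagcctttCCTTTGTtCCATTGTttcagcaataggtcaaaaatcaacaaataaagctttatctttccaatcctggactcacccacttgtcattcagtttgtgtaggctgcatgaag
Cwc22 gained distal: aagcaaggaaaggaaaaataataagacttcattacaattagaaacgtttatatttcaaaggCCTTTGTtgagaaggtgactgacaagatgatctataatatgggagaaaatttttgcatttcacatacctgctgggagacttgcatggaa
Ccn2 gained promoter: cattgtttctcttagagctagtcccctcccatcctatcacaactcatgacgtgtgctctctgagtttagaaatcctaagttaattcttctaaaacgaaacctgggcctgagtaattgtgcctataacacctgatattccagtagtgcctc

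Of the kept peaks outside the background regions described further on, the windows (chr13:114639048-114639197, chr16:25958101-25958250 and chr10:117663331-117663480) hold none of the words. The last peak is at the start of the noncoding gene *Gm25709* inside *Cpm*, 33906 bp from a start of *Cpm*.
Mocs2 kept distal: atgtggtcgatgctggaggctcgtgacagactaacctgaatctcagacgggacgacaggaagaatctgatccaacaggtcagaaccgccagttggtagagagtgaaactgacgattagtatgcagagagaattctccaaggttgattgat
P3h2 kept distal: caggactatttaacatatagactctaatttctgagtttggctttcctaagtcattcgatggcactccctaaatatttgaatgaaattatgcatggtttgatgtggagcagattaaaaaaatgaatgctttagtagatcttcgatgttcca
Cpm kept promoter: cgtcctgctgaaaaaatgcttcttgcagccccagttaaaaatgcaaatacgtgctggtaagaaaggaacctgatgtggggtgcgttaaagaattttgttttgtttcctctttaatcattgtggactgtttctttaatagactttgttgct

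The highest lost peak of *Gata3* (window chr2:9860246-9860395) and the highest gained peak of *Runx1* (window chr16:92615058-92615207), both intronic, hold 0 and 1 of the words, the latter a SOX word.
Gata3 lost: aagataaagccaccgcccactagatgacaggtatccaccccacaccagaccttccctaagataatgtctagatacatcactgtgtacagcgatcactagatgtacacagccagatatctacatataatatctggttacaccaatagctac
Runx1 gained: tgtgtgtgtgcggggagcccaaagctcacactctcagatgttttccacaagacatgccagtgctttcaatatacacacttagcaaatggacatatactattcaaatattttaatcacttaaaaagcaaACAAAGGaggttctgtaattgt

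Peaks were ranked within their own list by total signal, the sum of the coverage over the bases of a peak. The study's methods describe tracks scaled to RPKM, but every maximum of the D0 and W1 lists was a whole number, against 0.601% of those in the RPKM-scaled SOX9 list of W1, and the values were read as unscaled coverage, that is as numbers of overlapping fragments. If the values were scaled and then rounded, the fragment numbers and Poisson interval given here would not hold, whereas ranks and overlaps do not rest on that reading. Lost peaks were weak and narrow, with a median total signal of 843, a median maximum of 6 overlapping fragments and a median width of 288 bp. Kept D0 peaks had medians of 1705, 9 and 417 bp. Gained peaks resembled the lost ones, with medians of 751, 6 and 284 bp, against 1373, 8 and 409 bp for kept W1 peaks. The median lost peak stood at percentile 32.1 of the D0 list and the median gained peak at percentile 29.8 of the W1 list.

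The precision of a single call follows from these numbers. No fragment was longer than 120 bp, so the median lost peak needed at least 7.03 fragments and the median gained peak at least 6.26. The weakest peaks of both lists had a maximum of 5 fragments, a count whose exact Poisson 95% interval runs from 1.62 to 11.7. Of the 8218 D0 peaks with that maximum, 74.8% (95% CI 73.9 to 75.7) were lost, against 34.3% (95% CI 32.3 to 36.3) at a maximum of 10, 3.25% (95% CI 2.51 to 4.19) at 21 to 50 and 0 of 128 above 50. Of the W1 peaks, 62.6% (95% CI 61.6 to 63.5) were gained at a maximum of 5, 20.5% (95% CI 18.6 to 22.7) at 10, 8.94% (95% CI 7.15 to 11.1) at 21 to 50 and 0 of 59 above 50. A weak site below the calling limit at one time point thus counted as lost or gained, and weak and absent occupancy were not distinguishable at this depth.

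The rule itself left few borderline cases. Of the kept D0 peaks, 97.3% overlapped a W1 peak by at least 50% of the shorter one and 143 by less than 50 bp. Of the lost peaks, 410 (2.28%) lay within 100 bp of a W1 peak and 18.7% within 1 kb, and the median distance was 8379 bp. The median gained peak lay 11852 bp from the nearest D0 peak, and 14.4% of the gained peaks were more than 100 kb away from any, against 7.67% of the lost peaks from any W1 peak. A gained peak stood within 10 kb of 20.6% of the lost and 32.3% of the kept D0 peaks.

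Promoters, where a peak reached within 1 kb of an annotated transcript start, were divided unequally between the classes. They took up 26.8% of all lost sites (95% CI 26.2 to 27.5), 22.8% of the kept D0 peaks (95% CI 22.2 to 23.4), 22.9% (95% CI 22.3 to 23.5) of the kept W1 peaks and 11.3% (95% CI 10.8 to 11.9) of the gained peaks. In the other direction, 4821 of 9177 promoter peaks were lost (52.5%, 95% CI 51.5 to 53.6) and 13142 of 27895 distal peaks (47.1%, 95% CI 46.5 to 47.7). Of the W1 peaks, 1420 of 5768 at promoters were gained (24.6%, 95% CI 23.5 to 25.7) and 11098 of 25771 distal ones (43.1%, 95% CI 42.5 to 43.7). Among distal peaks, the lost share was 47.8% in introns (95% CI 47.0 to 48.6) and 45.8% in intergenic DNA (95% CI 44.9 to 46.6), and the intervals were apart. The gained shares were 42.6% and 43.3%, with intervals that met. The fewer distal peaks in coding and noncoding exons had 57.1% of 198 (95% CI 50.1 to 63.8) and 54.9% of 616 (95% CI 50.9 to 58.8) lost. Their gained shares were 51.6% of 186 (95% CI 44.5 to 58.7) and 47.5% of 518 (95% CI 43.2 to 51.8).

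The gained share rose with distance from a start. It was 24.2% (95% CI 23.1 to 25.4) within 1 kb, 39.3% from 1 to 10 kb, 42.7% from 10 to 50 kb, 50.4% (95% CI 48.6 to 52.3) from 50 to 100 kb and 57.2% (95% CI 54.3 to 60.1) beyond 100 kb. The lost share moved less, between 53.0% (95% CI 52.0 to 54.1) within 1 kb and 44.2% (95% CI 42.2 to 46.1) from 50 to 100 kb.

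**Figure D1:**
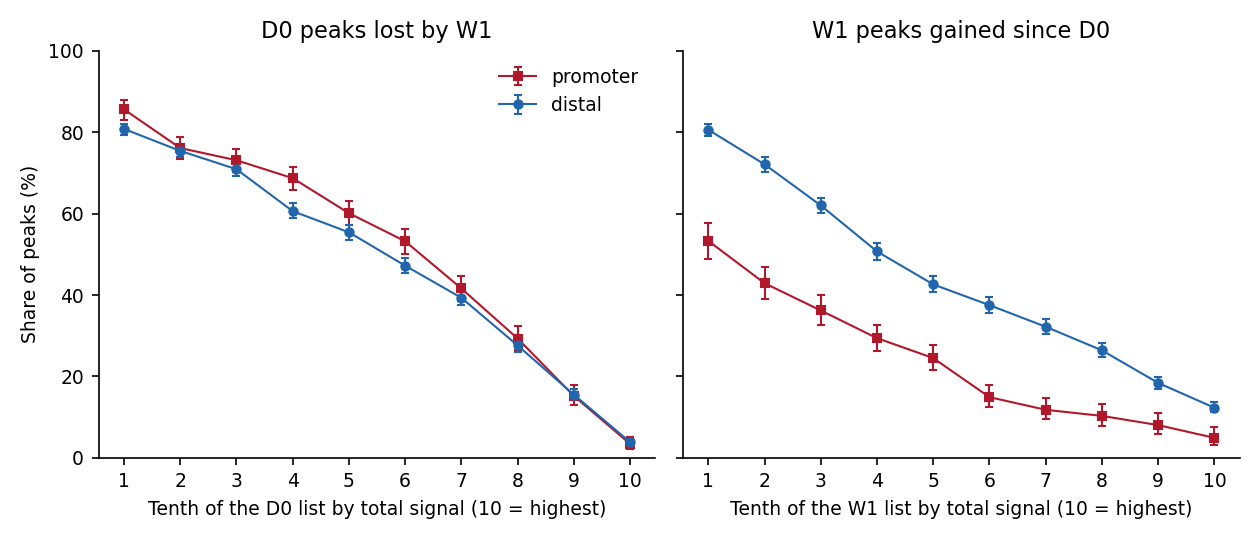
Share of D0 peaks lost by W1 (left) and of W1 peaks gained since D0 (right), in %, in each decile of its list by total signal (x axis, 10 the highest), for promoter peaks (red squares) and distal peaks (blue circles). Bars are 95% Wilson intervals over peaks. The curves for lost peaks run close together and fall to 3.41% and 3.85%, whereas promoter peaks lie below distal ones in every decile on the right.

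At equal rank the difference between promoters and distal sites remained for gained peaks. In the lowest decile of the W1 list 53.3% (95% CI 48.8 to 57.7) of the promoter peaks and 80.6% (95% CI 79.0 to 82.0) of the distal peaks were gained, and in the highest decile 4.90% (95% CI 3.12 to 7.62) and 12.3% (95% CI 11.2 to 13.6). The intervals of promoter and distal peaks were apart in all 10 deciles. For lost peaks they were apart in 3 of the 10, the first, the fourth and the sixth, with promoter peaks the more often lost. In the highest decile 3.41% (95% CI 2.24 to 5.16) of promoter and 3.85% (95% CI 3.22 to 4.58) of distal peaks were lost.

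Lists that had no part in the calls were then looked up at the same places. After 2 weeks of DOX (W2), an MLL3/4 peak was found at 3939 lost peaks (21.9%, 95% CI 21.3 to 22.5), 15092 kept D0 peaks (79.0%, 95% CI 78.4 to 79.6) and 4841 gained peaks (38.7%, 95% CI 37.8 to 39.5). Lost promoter peaks were back more often than lost distal ones, at 28.9% (95% CI 27.6 to 30.2) against 19.4% (95% CI 18.7 to 20.1). These shares rose with rank: in the highest decile of their list, 97.5% (95% CI 95.3 to 98.7) of the 362 gained peaks recurred at W2, but 45.7% (95% CI 37.7 to 54.0) of the 140 lost peaks were back. Of the kept peaks in that decile, 99.6% (95% CI 99.3 to 99.8) of the W1 list and 96.5% (95% CI 95.8 to 97.0) of the D0 list had a W2 peak.

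Cultured keratinocytes of the same labelled genotype gave a different order. Their MLL3/4 list without DOX met 4524 lost peaks (25.2%, 95% CI 24.6 to 25.8), 10438 kept D0 peaks (54.6%, 95% CI 53.9 to 55.3) and 1971 gained peaks (15.7%, 95% CI 15.1 to 16.4). With DOX and wild-type SOX9, the cultured list met 489 lost peaks (2.72%, 95% CI 2.49 to 2.97) and 1462 gained peaks (11.7%, 95% CI 11.1 to 12.3). The cultured DOX list was the shorter one, with 10543 peaks against 33975, so the 2 sets of shares are not comparable in level. The order of lost and gained peaks was opposite in the 2 cultured lists.

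SOX9 CNR of W1 separated promoter and distal peaks within the lost class. It overlapped 13.3% (95% CI 12.3 to 14.2) of the lost promoter and 5.49% (95% CI 5.12 to 5.90) of the lost distal peaks, 22.0% (95% CI 20 to 24.3) of the gained promoter and 31.6% (95% CI 30.7 to 32.5) of the gained distal peaks, and 54.7% and 55.1% of the kept D0 peaks at promoters and elsewhere. By rank, the share in gained peaks went from 7.48% (95% CI 6.50 to 8.60) in the lowest to 96.4% (95% CI 94 to 97.9) in the highest decile. Kept W1 peaks, ranked in the same list, went from 20.4% (95% CI 17.7 to 23.4) to 92.9% (95% CI 91.9 to 93.8). The rise with rank was thus not particular to gained peaks. Lost peaks stayed between 3.52% and 14.1% in all deciles, and those of the highest decile stood at 10% (95% CI 6.05 to 16.1), against 77.6% (95% CI 76.2 to 79.0) of kept D0 peaks of that decile.

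**Figure D2:**
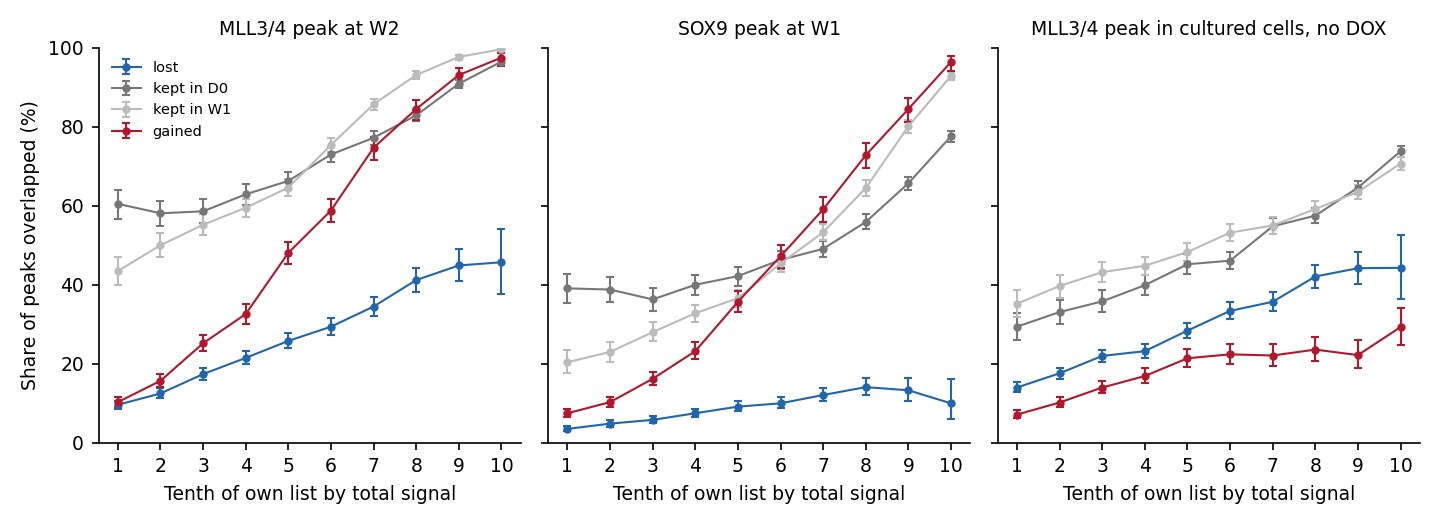
Share of lost (blue), kept D0 (dark grey), kept W1 (light grey) and gained (red) peaks, in %, overlapped by MLL3/4 peaks of W2 (left), SOX9 peaks of W1 (middle) and MLL3/4 peaks of cultured cells without DOX (right), by decile of the peaks' own list by total signal. Bars are 95% Wilson intervals. Gained peaks climb to 97.5% for W2 and 96.4% for SOX9, and kept W1 peaks to 99.6% and 92.9%. Lost peaks stay at or below 45.7% and 14.1%, and in cultured cells they lie above the gained ones.

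Kept sites with and without SOX9 differed in where they stood in the 2 lists. A percentile depends on the other peaks of its list, and the W1 list was shorter and held fewer unmatched peaks, most of them weak, so kept peaks could stand lower at W1 with no change of their own. For this reason differences of percentile are read only between kept sites with and without SOX9 and not against 0. Among the 17197 kept peaks that matched 1 to 1, the median difference, W1 minus D0, was -4.39 (middle 50% from -20.6 to 9.41). It was -1.31 with a W1 SOX9 peak (n = 9228) and -10.7 without (n = 7969). At distal sites these medians were -0.166 and -9.92, and at promoters -7.77 and -13.5. A higher percentile at W1 than at D0 was found at 44.7% (95% CI 43.7 to 45.7) of the kept sites with SOX9 and 32.8% (95% CI 31.8 to 33.8) of those without. At equal D0 rank the gap was of like size for D0 percentiles 0 to 20, with 95.9% (95% CI 93.8 to 97.3) against 85.9% (95% CI 83.4 to 88.0), and larger above. For percentiles 40 to 60, 64.7% (95% CI 62.2 to 67.2) and 34.3% (95% CI 32.2 to 36.5) had a higher percentile at W1. For percentiles 80 to 100 the shares were 25% (95% CI 23.7 to 26.3) and 5.15% (95% CI 4.20 to 6.30). The W1 percentile and the SOX9 overlap both grow with how strongly a site was recovered in W1 cells, and the part of that in the gap was not tested.

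**Figure D3:**
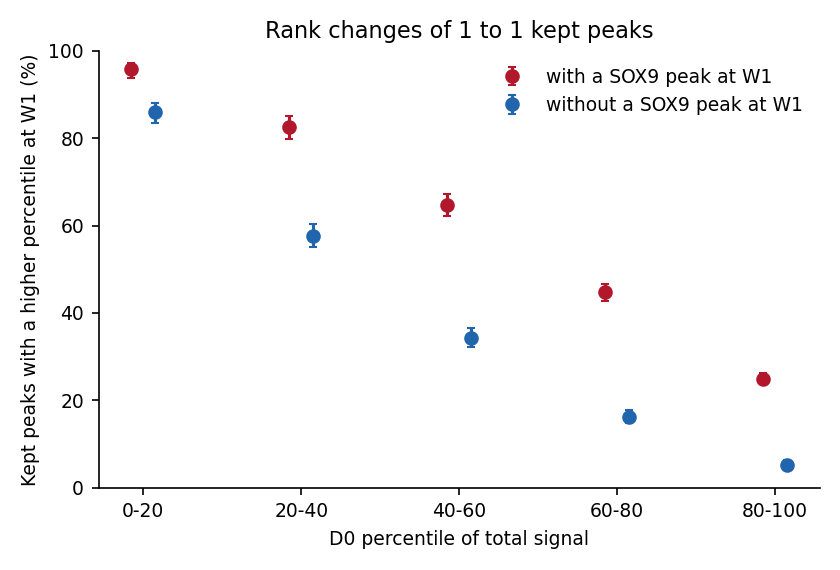
Share of 1 to 1 kept peaks with a higher percentile of total signal at W1 than at D0, in %, by D0 percentile (x axis), for sites with (red) and without (blue) a SOX9 peak at W1. Bars are 95% Wilson intervals. The red points lie above the blue ones in all 5 groups, from 95.9% against 85.9% to 25% against 5.15%.

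Low D0 peaks mostly stood higher at W1 and high ones lower, with or without SOX9, so the extremes are given as a description. All 5 of the largest rises began near the lowest total of the D0 list (480), and the 5 largest falls ended near that of the W1 list (484). The largest rises of a kept peak were 64094 bp from *Kitl*, which encodes the ligand of the receptor KIT, where total signal went from 499 at D0 to 7978 at W1 (percentile 2.07 to 99.1 of the respective list), and in an intron of *Kat6b*, a histone acetyltransferase gene, from 494 to 6007 (percentile 1.55 to 98.0). Sites near *Fam234a*, *Gm11146* and *Eea1* followed, and all 5 had SOX9 peaks at W1 and MLL3/4 peaks at W2. The largest falls were near *Edn2*, the gene of endothelin 2, from 5187 to 485 (percentile 96.1 to 0.246), and near *Ndst3*, *Tjap1*, *Cd55* and *Rasa3*. Of these 5, 2 had SOX9 peaks at W1.

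Gene by gene, 31983 D0 peaks and 25547 W1 peaks had the start of a protein-coding gene within 100 kb and were assigned to the nearest one. Of these, 49.1% of the D0 peaks were lost and 36.7% of the W1 peaks gained. The genes named first are those with the highest counts, which also follow from how many peaks a gene has. Of the 11703 genes with a D0 or W1 peak, 3008 had both lost and gained peaks, 4750 lost but no gained ones and 2223 gained but no lost ones. These counts also follow from the numbers of assigned peaks, 15717 lost and 9364 gained. *Nectin1*, whose product joins neighbouring epithelial cells, had most lost peaks (16 of 19), followed by *Bcar3*, a gene of adhesion signalling (15 of 21), *Ripk4*, a kinase gene of epidermal differentiation (15 of 22), and *Hes1*, a NOTCH target (14 of 18). *Etl4* (14 of 22), *Nedd4l*, a ubiquitin ligase gene (14 of 26), *Vav3* (13 of 27), *Retreg1* (12 of 15), *Gja1* (12 of 18) and *Btbd3* (12 of 18) completed the 10. *Vav3* and *Nedd4l* thus lay near the share of all assigned peaks. The gained peaks near these genes numbered from 1 at *Gja1* to 11 at *Etl4*.

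Of the 3864 genes with at least 3 D0 peaks, 303 (7.84%) lost all of them, and 197 of the 303 gained none. *Pak1*, a kinase gene of the cytoskeleton, lost 10 of 10, *Tmem266* 9 of 9, and *Cstad*, *Fam83g* and *Prkag2*, a subunit gene of AMP kinase, 8 of 8. *Mxi1*, *Slc34a2*, *Sod1*, *Srebf2*, *Tbl1xr1*, *Tmprss13* and *Zfp667* lost 7 of 7, of which *Sod1* encodes superoxide dismutase and *Srebf2* a regulator of cholesterol synthesis. At *Pak1* 5 of the lost peaks were at promoters and 1 was back at W2. A further 309 of the 3864 genes (8.0%) lost none.

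Apart from *Cwc22*, described next, most gained peaks lay near *Zbtb20* (18 of 26 W1 peaks), *Filip1l* (16 of 24), *Prickle2* (13 of 27), *Pde4b* (13 of 31), *Trp63* (12 of 29), *Lurap1l* (11 of 11), *C130026I21Rik* (11 of 12), *Ppp3ca* (11 of 17) and *Tmem45a* (11 of 19). *Pde4b* and *Trp63* lay near the 36.7% of all assigned peaks. *Zbtb20* encodes a zinc-finger repressor, *Prickle2* a planar polarity protein and *Pde4b* a phosphodiesterase. SOX9 peaks of W1, which overlapped 30.5% of all gained peaks, met 13 of the 18 of *Zbtb20*, 11 of 16 of *Filip1l*, 8 of 12 of *Trp63*, 7 of 11 of both *Ppp3ca* and *Tmem45a*, 7 of 13 of *Pde4b*, 5 of 13 of *Prickle2*, 3 of 11 of *Lurap1l* and 0 of 11 of *C130026I21Rik*. Of the 11703 genes with a D0 or W1 peak, 1438 had gained peaks and no D0 peak, and 18 of these had at least 5. They included *Lurap1l* (11 gained peaks) and, chosen after the values were seen, *Ptprg* (8), *Inhbb*, a subunit gene of activin (7), *Stat4* (7), *Fst*, the gene of the activin inhibitor follistatin (5), and the WNT ligand gene *Wnt2b* (5). Of these gained peaks, 5 of 7 at *Inhbb*, 4 of 7 at *Stat4*, 4 of 5 at *Wnt2b*, 2 of 8 at *Ptprg* and 1 of 5 at *Fst* had a SOX9 peak. At W2, where 38.7% of all gained peaks recurred, 5 of 5 were present at *Wnt2b*, 6 of 7 at *Inhbb* and at *Stat4*, 4 of 5 at *Fst*, 7 of 11 at *Lurap1l* and 4 of 8 at *Ptprg*.

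A stretch of 157 kb on chromosome 2 (chr2:77869660-78026997) at *Cwc22*, a gene of pre-mRNA splicing, stood apart from the rest of the W1 list. It held 104 W1 peaks, 98 of them gained, against 7 D0 peaks and 27 at W2. Gained peaks there covered gene and surroundings alike, with 49 of 98 inside *Cwc22*, and had a median total signal of 1533, at percentile 67.6. The ratio of W1 to D0 total, which also carries the unknown difference in depth, was 1.42 to 4.68 at the 5 kept 1 to 1 peaks, beside a median of 0.8 (middle 50% from 0.555 to 1.2) over all 17197 kept pairs. The stretch held 3 SOX9 peaks at D0, 10 at W1 and 1 at W2, and 6 of the 98 gained peaks met one of W1, and the lists of cultured cells held 0 or 1 peak. The same stretch held 9 of the 10 gained peaks assigned to *Zfp385b*. The copy number of *Cwc22* is known to differ among laboratory mice, and its part here was not tested. Without the stretch the gained share was 39.5%.

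**Figure D4:**
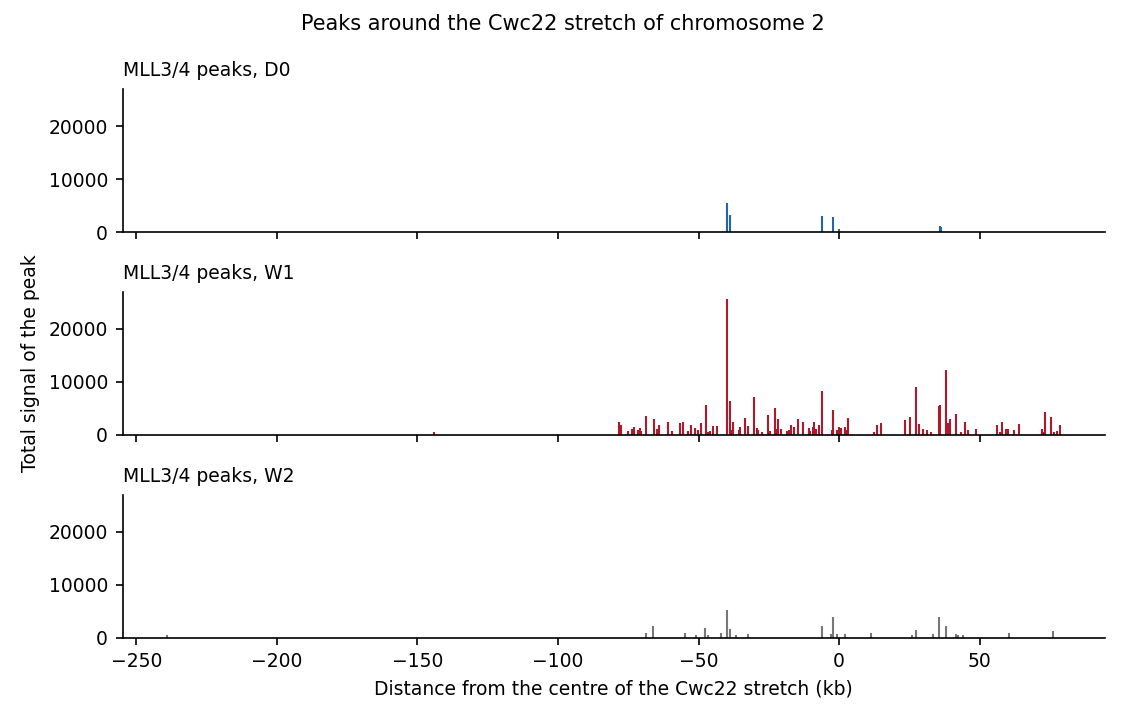
Total signal (y axis, coverage summed over a peak, read as unscaled) of MLL3/4 peaks at D0, W1 and W2 against distance in kb from the centre of the stretch at Cwc22, 1 line for each peak. Totals of different panels were read as not scaled to each other's depth. The W1 panel is filled over 157 kb by 104 peaks reaching 25747, the D0 panel holds 7 and the W2 panel 27.

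By number, most kept peaks lay near *Sfi1* (41 of 43), *Arid5b* (35 of 39), *Tiam1* (23 of 34), *Sgms1* (21 of 27), *Irf2bp2* (21 of 30), *Cxadr* (20 of 28), *Maml3* (20 of 27), *Nhsl1* (20 of 22), *Cd44* (20 of 26) and *Ets2* (20 of 30). *Cd44* encodes a hyaluronan receptor, *Maml3* a NOTCH coactivator and *Arid5b* a DNA-binding regulator. At *Sfi1*, 33 of the 43 D0 peaks also overlapped MYC-tag peaks of cultured cells without DOX, which carry no induced tag, against 0 of 39 at *Arid5b*.

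The kept peaks of highest total signal were of the same kind. The 5 promoter and 5 distal ones, led by *Gm10800* (chr2:98666237-98667335, total signal 1015667) and a site 37588 bp from *Rpusd4* (chr9:35305211-35305592, 379066), were each present in all 18 lists, as were 31 D0 peaks in total, all kept. The MYC-tag list without DOX overlapped 3.44% of the D0 peaks. Outside it, and chosen after the values were seen, the highest kept distal peaks lay in introns of noncoding genes 179113 bp from *Mocs2* (chr13:114638687-114640033, total signal 33392) and 147608 bp from *P3h2* (chr16:25957782-25958696, 30382), near *Maml3* (24578), in *Cry1*, a gene of the circadian clock (24436), and near *Prss23* (23748). The highest at a start was that of the noncoding gene *Gm25709* within *Cpm* (chr10:117663098-117664024, 24030). It was followed by noncoding starts 32597 bp from *Fgfbp1* and 332331 bp from *Klf5* and by the starts of *Arl13b* and *Camk1d*.

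Of the lost distal peaks the highest stood 44189 bp from *Gja1*, the gene of the gap junction protein connexin 43 (chr10:56422421-56423483, total signal 8698, rank 362 of the D0 list). It was followed by sites 30378 bp from *Pdzrn4* (chr15:92366345-92367208, 7941) and 5787 bp from *Grtp1* (chr8:13206196-13206788, 6660), and by 2 sites with no coding start within 100 kb, the nearest being *Pik3r1* (6181) and *Mylip* (6153). None of these 5 overlapped a peak in any of the other 17 lists. The same was true of 45 of the 119 lost distal peaks in the highest decile (37.8%), against 6 of 344 gained distal peaks of the highest decile. Of all lost peaks 51.6% and of all gained peaks 42.3% were in no other list, so both shares lay below those of their class as a whole. The highest lost promoter peak reached the starts of *Setd5* and *Gt(ROSA)26Sor* (chr6:113075694-113076581, total signal 7126) and was present again at W2. The others were at starts of *4833415N18Rik* (4967), *Tmem123* (4705), the clock repressor gene *Nr1d1* (4632) and *Gm10782* (4425), of which the first 3 were back at W2.

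The highest gained distal peaks lay 33104 bp from *Tle1*, a corepressor gene (chr4:72233620-72234419, total signal 12952, rank 60 of the W1 list), in the *Cwc22* stretch (12176), in *Nde1* near *Marf1* (chr16:14179759-14180738, 10650), near *Clec2d* (10566), and far from any coding start, with *Adgrl2* nearest (10241). The highest gained promoter peaks were at starts of the noncoding genes *Gm15271* (chr10:24445858-24446862, total signal 8871; the nearest coding gene is *Ccn2*), *Gm34047* (near *Ahr*, 7249), *Gm26677* (near *Nfe2l3*, 6765), *Gm40117* (near *Wnt2b*, 5372) and *Gm40055* (4743). All 10 recurred at W2. The *Gm15271* peak was present in 16 of the 18 lists, the MYC-tag list without DOX included.

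The members of pathways and cell types were taken from lists, and their shares were read against all assigned peaks, of which 49.1% (95% CI 48.6 to 49.7) were lost and 36.7% (95% CI 36.1 to 37.2) gained. Genes of epidermal structure and differentiation (26 of 29 with D0 peaks) had 40 of 129 peaks lost (31.0%, 95% CI 23.7 to 39.4) and 26 of 119 gained (21.8%, 95% CI 15.4 to 30.1). Their D0 peaks were high in the list, with a median percentile of 71.7. In the upper 50% of the D0 list, where 27.2% (95% CI 26.6 to 27.8) of all peaks were lost, they stood at 20.2% (95% CI 13.3 to 29.4). With both lists restricted to a total signal above 1800, 56.9% of 65 were lost (95% CI 44.8 to 68.2), beside 51.2% of all peaks, so the lower share was not seen there. *Tgm3*, a transglutaminase of the cornified layer, had 12 of 25 peaks lost and 0 gained, the highest 31967 bp from its start (total signal 4016). *Abca12*, a lipid transporter gene, lost 3 of 12 and gained 3, *Scel* lost 2 of 13 and gained 4, and *Calml3* lost 1 of 8 and gained 4.

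Epidermal transcription factors, all 26 with D0 peaks, had 132 of 285 peaks lost (46.3%, 95% CI 40.6 to 52.1) and 66 of 221 gained (29.9%, 95% CI 24.2 to 36.2). *Trp63*, the master gene of stratified epithelia, lost 9 of 26 and gained 12. *Hes1* lost 14 of 18 and gained 2, and *Grhl2*, a regulator of epithelial junctions, lost 8 of 19 and gained 7. *Ehf*, an epithelial ETS factor gene, lost 3 of 15 and gained 10. The gained share near these factors in the upper 50% of each list was 36.8% of 117, beside 36.6% of all peaks, and the lost share above a total signal of 1800 was 52.6% of 78, beside 51.2%.

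Basal epidermal genes had 67 of 164 peaks lost (40.9%, 95% CI 33.6 to 48.5) and 45 of 142 gained (31.7%, 95% CI 24.6 to 39.7), and desmosome and gap junction genes 59 of 141 lost (41.8%, 95% CI 34.0 to 50.1) and 27 of 114 gained (23.7%, 95% CI 16.8 to 32.3; 15.7% of 70 in the upper 50% of each list). Above a total signal of 1800 the junction genes had 50.8% of 61 lost, beside 51.2% of all peaks. *Cd44* lost 6 of 26 and gained 10, *Dst*, a linker gene of hemidesmosomes, lost 8 of 18 and gained 6, and *Bcl11b* lost 8 of 10 and gained 2. Of the junction genes, *Gja1* lost 12 of 18 and gained 1, *Dsp* (desmoplakin) lost 6 of 19 and gained 6, *Pkp1* lost 7 of 17 and gained 2, and *Dsc1* lost 5 of 8 and gained 3.

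Transcription factors of hair follicle stem cells had 83 of 166 peaks lost (50.0%, 95% CI 42.5 to 57.5) and 63 of 146 gained (43.2%, 95% CI 35.4 to 51.3; 59.0% of 39 above a total signal of 1800, beside 37.9% of all peaks). The members differed. *Foxp1* lost 11 of 21 and gained 2, *Nfib* lost 10 of 16 and gained 3, and *Sox6* lost 9 of 11 and gained 4, whereas *Barx2* lost 5 of 15 and gained 6. Outside these 4, and chosen after the values were seen, *Runx1* lost 2 of 6 and gained 9, and *Foxc1* lost 0 of 3 and gained 9. Surface and secreted genes of these cells had 65 of 141 lost (46.1%, 95% CI 38.1 to 54.3) and 36 of 113 gained (31.9%, 95% CI 24.0 to 40.9), with *Lrig1*, an inhibitor of EGF receptor signalling, at 10 of 21 lost and 1 gained, *Fgfr2* at 5 of 13 lost and 5 gained, *Bmp4* at 7 of 9 lost and 0 gained, and *Vdr* at 4 of 8 lost and 3 gained.

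Among signalling pathways, the TGF-beta and BMP list had 94 of 156 peaks lost (60.3%, 95% CI 52.4 to 67.6) and 39 of 100 gained (39.0%, 95% CI 30.0 to 48.8). The receptor gene *Tgfbr2* lost 11 of 18 and gained 0, the coreceptor gene *Tgfbr3* lost 6 of 11 and gained 2, the signal transducer *Smad3* lost 8 of 12 and gained 1, and the ligand gene *Bmp4* lost 7 of 9 and gained 0. In the upper 50% of the D0 list the share was 38.0% (95% CI 27.6 to 49.7), beside 27.2% of all peaks. With both lists restricted the excess was not seen: 46.5% (95% CI 35.4 to 58.0) were lost in the upper 50% of each list, beside 45.7% of all peaks, and 52.5% (95% CI 37.5 to 67.1) above a total signal of 1800, beside 51.2%. The gained share was then 28.3% and 24.0%, beside 36.6% and 37.9% of all peaks. The hedgehog list was small, with 29 of 45 lost (64.4%, 95% CI 49.8 to 76.8) and 12 of 29 gained (41.4%, 95% CI 25.5 to 59.3). *Disp1*, needed for release of the ligand, lost 6 of 7 and gained 0, and the coreceptor gene *Gas1* lost 3 of 5 and gained 3. Of the effector genes, *Gli2* lost 3 of 6 and gained 2, and *Gli3* lost 3 of 8 and gained 2. Of the 11 W1 peaks in the upper 50%, 27.3% were gained (95% CI 9.75 to 56.6). Above a total signal of 1800 only 5 peaks were left at either time, of which 80% were lost and 80% gained (95% CI 37.6 to 96.4 for both).

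WNT (84 of 182, 46.2%, 95% CI 39.1 to 53.4), NOTCH (53 of 111, 47.7%, 95% CI 38.7 to 57) and EGF receptor genes (54 of 124, 43.5%, 95% CI 35.1 to 52.3) had lost shares near that of all peaks, but above a total signal of 1800 that of the NOTCH list was 65.5% of 29 (95% CI 47.3 to 80.1), beside 51.2%. Their gained shares were 36.9% (58 of 157), 28.2% (22 of 78) and 25% (24 of 96, 95% CI 17.4 to 34.5), and above a total signal of 1800 those of the WNT and NOTCH lists were 29.5% of 44 and 44.4% of 18, beside 37.9% of all peaks. The WNT feedback gene *Axin2* lost 7 of 10 and gained 2, the receptor gene *Fzd10* lost 6 of 18 and gained 3, and of the corepressor genes *Tle3* lost 9 of 16 and gained 0 while *Tle4* lost 2 of 14 and gained 7. The NOTCH ligand gene *Jag1* lost 8 of 12 and gained 2, while the coactivator gene *Maml2* lost 1 of 6 and gained 9 and *Maml3* lost 7 of 27 and gained 3. *Egfr* lost 12 of 21 and gained 3, its ligand gene *Epgn* 7 of 16 and 1, and its inhibitor gene *Errfi1* 6 of 17 and 2.

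**Figure D5:**
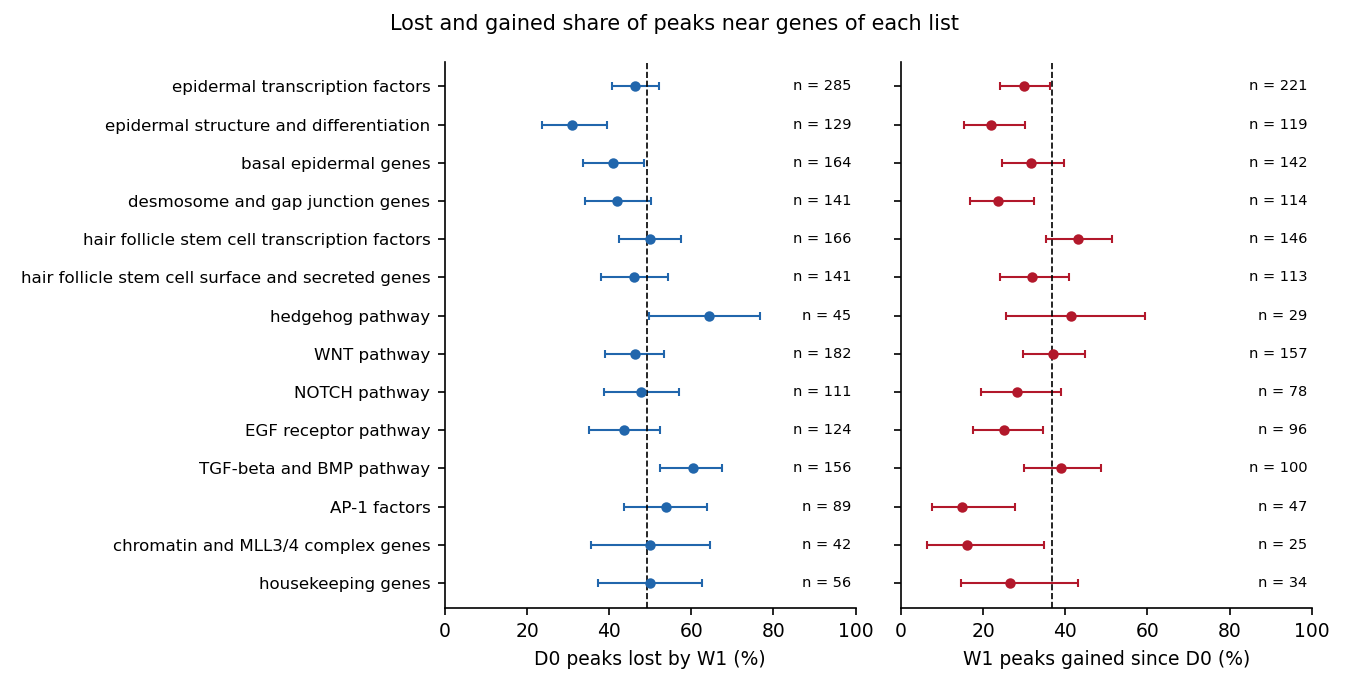
Share of D0 peaks lost (left, blue) and of W1 peaks gained (right, red), in %, near the genes of each list with at least 20 peaks at both time points, with 95% Wilson intervals and the number of peaks. Dashed lines mark all assigned peaks, 49.1% lost and 36.7% gained. On the left the intervals of TGF-beta and BMP and of hedgehog genes lie above the dashed line and those of epidermal structure and differentiation and of basal epidermal genes below it. Above a total signal of 1800, with 51.2% of all peaks lost, these 4 lists stood in that order at 52.5%, 80% (of 5), 56.9% and 45.9%. On the right the intervals of 6 lists lie below the line (epidermal factors, epidermal structure, junctions, EGF receptor, AP-1 and chromatin), with AP-1 factors lowest at 14.9%.

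Few peaks were gained near the genes of AP-1, the FOS and JUN factors: 48 of 89 were lost (53.9%, 95% CI 43.6 to 63.9) and 7 of 47 gained (14.9%, 95% CI 7.41 to 27.7). Of the 26 W1 peaks in the upper 50%, 7.69% were gained, and above a total signal of 1800 0 of 11. *Fos* lost 12 of 23 and gained 2, *Fosl2* 10 of 13 and 1, *Jun* 7 of 11 and 2, and *Fosb* 5 of 10 and 1. Genes of chromatin regulators and of the MLL3/4 complex had 21 of 42 peaks lost and 4 of 25 gained (16%, 95% CI 6.40 to 34.7), with *Smarca2*, an ATPase gene of the SWI/SNF remodeller, at 6 of 8 lost, *Arid1b* at 3 of 8, *Smarcd2* at 4 of 5 and *Arid1a* at 1 of 3. Above a total signal of 1800, 84.6% of the 13 D0 peaks left were lost (95% CI 57.8 to 95.7) and 0 of 2 W1 peaks gained. *Kmt2c* itself, also named after its value was seen, had 1 D0 peak, which was lost. Housekeeping genes had 28 of 56 lost (50.0%, 95% CI 37.3 to 62.7) and 9 of 34 gained (26.5%, 95% CI 14.6 to 43.1). In the upper 50% of each list 68.8% of 32 were lost (95% CI 51.4 to 82.0), beside 45.7% of all peaks, and above a total signal of 1800 it was 75% of 16 (95% CI 50.5 to 89.8), beside 51.2%. Of these genes, *Ywhaz* lost 10 of 19 and gained 1, *Actb* lost 8 of 9 and *Ppia* lost 4 of 4, both with 0 gained, and *Hsp90ab1* lost 1 of 2 and gained 2.

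Peaks near defining genes of most other cell types were few at D0, with *Pecam1*, *Mitf* and markers of hair follicle stem cells as exceptions. Within 10 kb of the gene, all 8 markers of EpdSCs had peaks at D0 and at W1, with 60 peaks in total at D0 and 49 at W1, whereas of the 5 fibroblast markers 1 had peaks at D0 (*Pdgfra*, 2 peaks, both lost) and 0 at W1. Of the 5 immune markers 1 had peaks (*Cd3e*, 4 at D0 and 2 at W1), and *Ptprc*, which encodes the sorted-out CD45, had 0 at both times, as did *Kit*, which encodes CD117. *Pecam1*, which encodes the sorted-out CD31, nevertheless had 13 of the 14 D0 peaks of the 5 endothelial markers, 5 of them lost, and 9 at W1, 2 of them gained, whereas *Cdh5*, *Kdr* and *Tie1* had 0 at both times. Melanocyte markers had 12 peaks at D0, 9 of them at *Mitf*, and *Sox10* had 0. By nearest start, however, the melanocyte list had 9 of 17 W1 peaks gained (52.9%, 95% CI 31.0 to 73.8), the highest gained share of the lists, and 80% of the 5 above a total signal of 1800. Of these, 6 were at *Mitf*, a master factor of melanocytes, 5 of them with SOX9, and 3 at *Sox10*, which had 0 peaks at D0, 2 of them with SOX9. The part of other cells in the results was not tested. Markers of hair follicle stem cells had 17 peaks at D0, 8 of them lost, and 15 at W1, 7 of them gained. *Nfatc1* had 8 at D0 (4 lost), *Tcf7l1* 6 (3 lost), *Sox9* 2 (0 lost) and *Lhx2* 1 (lost). *Cd34*, which encodes the sorted-out CD34, had 0 at D0 and 1 at W1, which was gained, and *Lgr5* had 0 at both times. Of the genes used for positive selection, *Itga6* (CD49f) had 14 peaks at D0, 5 of them lost, and *Ly6a* had 3, 2 of them lost. Peaks of hair shaft and inner root sheath genes, assigned by nearest start, numbered 13 at D0 and 7 at W1. Fewer cells of a type and less signal per cell cannot be told apart in such pools.

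At the loci of cell fate, taken with 50 kb to each side, gains outnumbered losses at *Runx1*, a follicle stem cell factor, with 1 of 4 D0 peaks lost and 10 of 13 W1 peaks gained, 7 of them with SOX9. *Ctnnb1* (beta-catenin) lost 1 of 3 and gained 4 of 6, and *Krt5*, a keratin of basal cells, lost 2 of 5 and gained 4 of 8. *Trp63* lost 8 of 23 and gained 10 of 25, 7 of them with SOX9. *Gata3*, which acts in epidermal differentiation, lost 2 of 9 and gained 0. The highest peak lost at *Gata3* was intronic (chr2:9860178-9860497, total signal 1810, rank 10413 of the D0 list) and was back at W2. The highest gained at *Runx1* was also intronic (chr16:92614944-92615638, total signal 2113, rank 6393 of the W1 list). Both stood well below the highest peaks of their class.

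Base composition and words were read in windows centred on the maximum and reaching 50 bp both ways. The median GC content was 46.0% in lost and kept distal windows and 43.0% in gained ones, beside 46.0%, 45.0% and 44.0% in windows moved by 1 kb, and at promoters it was 57% in lost, 53.0% in kept D0 and 50.0% in gained windows. The words, each on both strands, were ACAATGG or ACAAAGG for SOX, TGACTCA for AP1, AGATAAG or AGATAAC for GATA, for RUNX the word AACCACA, for TEAD GGAATGT, AACCGGTT for GRHL, GGGCGGG for KLF/SP, CCGGAAG for ETS, CCAATCA or CCAATGA for NFY, TGACGTCA for CREB, ATCAAAG for TCF/LEF, TTGCGCAA or TTGCATCA for CEBP and TGTTTAC for FOX, besides degenerate words for CTCF, NFI and TP63. A window can hold several words, and a match describes letters and not a bound site.

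At distal peaks the SOX word was in 7.47% (95% CI 7.0 to 7.97) of gained, 4.16% (95% CI 3.85 to 4.49) of kept W1, 3.29% (95% CI 3.02 to 3.59) of kept D0 and 2.21% (95% CI 1.98 to 2.48) of lost windows, with 3.78%, 3.5%, 3.5% and 3.24% in the moved windows. Lost windows thus held it less often than their own surroundings. All distal windows of the lists stood at 2.79% at D0 and 5.58% at W1. In the upper 50% of each list gained distal windows reached 12% (95% CI 10.9 to 13.1), while lost ones stood at 1.92% (95% CI 1.52 to 2.41). At promoters the word was in 5.35% (95% CI 4.30 to 6.65) of gained windows against 3.03% in moved ones, and in 1.76% (95% CI 1.43 to 2.17) of lost windows against 2.97%.

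The AP1 word was most common in kept distal windows. Kept D0 windows held it in 17.0% (95% CI 16.4 to 17.6), lost distal windows in 12.4% (95% CI 11.8 to 12.9) and gained distal windows in 9.32% (95% CI 8.79 to 9.87), against 1.87% to 2.04% in moved windows and 14.8% and 13.3% of all distal windows of D0 and W1. In the lower 50% of the D0 list the gap between kept (18.1%, 95% CI 16.9 to 19.3) and lost windows (12.3%, 95% CI 11.7 to 13.0) was no smaller. The TEAD word followed the same order, with kept D0 windows at 3.97% (95% CI 3.66 to 4.29), lost windows at 2.93% (95% CI 2.65 to 3.23) and gained windows at 2.85% (95% CI 2.55 to 3.17) (1.40% to 1.45% in moved ones). The GRHL word was rare, in 0.271% (95% CI 0.199 to 0.369), 0.160% (95% CI 0.105 to 0.244) and 0.0991% (95% CI 0.0554 to 0.177) of these windows.

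The GATA word was in 4.38% (95% CI 4.04 to 4.74) of lost, 3.82% (95% CI 3.52 to 4.14) of kept D0 and 3.11% (95% CI 2.80 to 3.45) of gained distal windows, beside 2.25%, 2.42% and 2.46% in moved ones. In the upper 50% of the D0 list lost windows stood at 5.06% (95% CI 4.40 to 5.82) and kept ones at 4.02% (95% CI 3.66 to 4.41), and the intervals met. The RUNX word stayed close to its surroundings, with 2.15% of lost, 2.49% of kept D0 and 2.56% of gained distal windows against 2.37%, 2.38% and 2.5%.

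The CTCF word was more common in lost and gained than in kept windows. CTCF is the insulator protein of chromatin loops. Lost distal windows held the word in 1.35% (95% CI 1.16 to 1.56) and gained distal windows in 0.973% (95% CI 0.807 to 1.17), but it was in 0.251% (95% CI 0.182 to 0.345) of kept D0 and 0.279% (95% CI 0.206 to 0.379) of kept W1 ones, near the 0.179% to 0.252% of moved windows. The excess lay in weak peaks: in the lower 50% of the D0 list it was in 1.81% (95% CI 1.56 to 2.10) of lost distal windows, and in the upper 50% in 0.137% (95% CI 0.0585 to 0.320).

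At promoters the words of general promoter factors changed with the class. KLF/SP words were in 18.0% (95% CI 16.9 to 19.1) of lost, 15.0% (95% CI 14.0 to 16.1) of kept D0 and 9.23% (95% CI 7.83 to 10.8) of gained promoter windows, and ETS words in 5.83% (95% CI 5.20 to 6.53), 4.02% (95% CI 3.47 to 4.64) and 4.23% (95% CI 3.30 to 5.40). NFY words were most common in kept windows, at 11.6% (95% CI 10.7 to 12.6), with lost windows at 6.99% (95% CI 6.30 to 7.74) and gained windows at 4.72% (95% CI 3.73 to 5.95). Moved windows gave 2.88% to 3.29% for KLF/SP, 0.896% to 0.915% for ETS and 1.55% to 1.98% for NFY. KLF/SP and ETS words are rich in G and C, as the lost promoter windows were, and the part of base composition in these shares was not tested. FOX (1.38% of lost, 1.61% of kept D0 and 1.96% of gained distal windows), TCF/LEF (1.80%, 1.86% and 2.30%) and CEBP words (0.487%, 0.529% and 0.586%) stayed low in all classes, CREB words stood at 1.26% to 1.41% of promoter windows, TP63 words were in 38 of the distal windows of lost, kept D0 and gained peaks, and NFI words in 1, 2 and 2 of them.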

How the data were processed

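MLL3/4 CNR of sorted EpdSCs was analysed from the D0 and W1 lists, each pooled by the authors from 2 samples, with 16 further lists for comparison. As the study's methods and the submitters' processing notes describe, the authors used Skewer for trimming, Bowtie2 2.2.9 for alignment to mm10, Picard to remove duplicates, SAMtools 1.3.1 to keep fragments up to 120 bp and to combine replicates, and deepTools 3.1.2 for tracks, and called peaks with SEACR (stringent, 0.01). The deposited MLL3/4 values of the pools are coverage signal, summed over a peak or at its maximum. The study's methods name RPKM-scaled tracks for peak calling, and the labels of these lists also name RPKM. All their maxima were nevertheless whole numbers, and the values were read as not scaled to depth. The deposited SOX9 and MYC-tag maxima are RPKM values, of which only the peak positions were used here. The study's methods also name a filter to peak scores above 1800, and the pooled SOX9 and MYC-tag lists are labelled with it. The MLL3/4 lists begin at totals of 480 (D0) and 484 (W1). Sites counted as without a SOX9 peak can therefore hold weaker SOX9 signal. Sequencing depth is not given in the sources used here, so peaks were compared mainly by rank within a list. Totals of different lists, where given side by side, were read as not scaled to each other's depth.

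Overlaps, ranks and words were computed with Python 3.11.15, pandas 2.3.3, numpy 2.4.6 and scipy 1.17.1, and plotted with matplotlib 3.10.9. The steps were tested on simulated data. Places and starts came from the basic transcripts of GENCODE vM21, a promoter peak reaching within 1 kb of a start. Peaks were assigned to the nearest protein-coding start within 100 kb. Intervals are Wilson intervals for shares and exact Poisson intervals for fragment counts. Moved windows lay 1 kb to either side. Named were the 5 highest promoter and 5 highest distal peaks of each class, the 10 genes with most lost, gained and kept peaks, genes with at least 3 D0 peaks that lost all of them (those with at least 7 are given), up to 4 members of each gene list with most lost plus gained peaks, the 5 largest rises and falls, and loci of fate and of the sort. The values of 1 list member named by this rule are not reported here. The classes, members and lists were chosen with earlier results of these data known. The kept peaks outside the MYC-tag list, the split of words by rank and the settings that leave out MYC-tag peaks or the *Cwc22* stretch were added after the data were seen.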

Additional observations from a re-analysis of the deposited data

How the results depend on the processing

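Requiring an overlap of 50% of the shorter peak gave 49.8% lost (54.1% of promoter and 48.4% of distal peaks) and 41.3% gained, with 21% of lost and 37.2% of gained peaks present at W2. In the upper 50% of each list, 45.7% were lost (55.9% and 42.5%) and 36.6% gained, promoters made up 29.1% of lost and 19.3% of kept D0 peaks, and 19.9% and 54.8% were present at W2. With lists of equal size, 42.9% were lost (48.0% and 41.2%) and 42.7% gained, promoters made up 28.3% of lost and 11.9% of gained peaks, and 25.6% and 40.0% were present at W2. With peaks within 500 bp merged, 47.1% were lost (49.8% and 46.3%), promoters made up 26.2% of lost and 23.5% of kept D0 peaks, and 21.3% and 36.9% were present at W2. Above a total signal of 1800, 51.2% were lost (63% and 48.1%) and 37.9% gained, promoters made up 25.6% of lost, 15.8% of kept D0 and 8.90% of gained peaks, and 21% and 62.6% were present at W2. With promoters of 2.5 kb, 46.4% of distal peaks were lost and promoters made up 35.9%, 30.4% and 18.3% of lost, kept D0 and gained peaks. Without peaks of the MYC-tag list, 49.6% were lost (55.1% and 47.9%) and 41.0% gained, and promoters made up 21.1% of kept D0 peaks. The cause of these shifts was not tested. The shares near gene lists left their intervals for 6 of 36 results in the upper 50%, for 19 of 35 above 1800 and for 0 of 37 under the other settings. Above 1800 the lost share near genes of epidermal structure and differentiation stood above that of all peaks (56.9% against 51.2%) and not below it, and the TGF-beta and BMP list (52.5%) stood close to it. Windows of 100 bp to each side raised the word shares, with gained distal windows at 13.0% and lost ones at 5.01% for SOX, and left the order of lost, kept D0 and gained windows as it was for SOX, AP1, GATA, TEAD and CTCF words. No paired analysis was possible because each group was 1 pooled list, and for that reason no replicate could be left out. Counting error, a lowest maximum of 5, read as fragments, and the unknown depth limit what a lost or gained call can show.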

Other observations

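Losses and gains were spread over the genome. The lost share of D0 peaks ranged from 42.4% on chromosome 13 to 56.7% on chromosome X, and the gained share of W1 peaks from 33.4% on chromosome 19 to 44.2% on chromosome 14. Over all chromosomes the shares were 48.5% and 39.7%. In windows of 200 kb, the highest numbers of lost peaks, which also follow from how many peaks a window holds, lay around *Sbno2* (18 of 28 D0 peaks), *Pla2g4e* (18 of 22), *Actn4*, which encodes an actin crosslinker (18 of 36), and *Pkp3*, a desmosome gene (18 of 33), the last 2 near the share of all peaks. Apart from *Cwc22*, the highest numbers of gained peaks lay around *Tmem45a* (15 of 32 W1 peaks) and *Filip1l* (14 of 20), both on chromosome 16.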
